A study of Mus musculus with 24 samples.

Results

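RNA of mouse peritoneal metastases, tumour deposits in the abdominal lining, was compared between samples treated with propionate and butyrate together and controls with no treatment. The comparison held 11 of the 24 libraries of the study: 5 of the 6 combination libraries (replicates 1, 2, 3, 4 and 6) and all 6 control libraries. These libraries were chosen by measured expression: combination replicate 5 was left out for its high B and T cell transcripts and its near lack of muscle transcripts. The remaining groups, 6 propionate and 6 butyrate libraries, are used below only for values side by side. Samples came from peritoneum, and the series title ties them to mannose, anti-PD-1 therapy, ovarian cancer and a gut microbial metabolite. The labels give no dose, time, tumour line, strain, age or anti-PD-1 treatment for any group, and they do not say that replicates are separate animals. The p-values below therefore speak for the scatter among these libraries, part or all of which may be technical. Abundance is given in TPM, transcript abundance on a scale where each library has the same total, so that sequencing depth is unknown.

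Gut bacteria make the short-chain fatty acids propionate and butyrate from dietary fibre. Cells sense them through surface receptors such as FFAR2, FFAR3 and HCAR2, take them up through monocarboxylate carriers and oxidise them in mitochondria, and both acids, butyrate more strongly, inhibit histone deacetylases. The peritoneal lining is a mesothelial sheet over muscle and fat, with resident macrophages in the cavity it encloses, so a sampled piece can hold tumour, mesothelium, muscle, fat and leukocytes in varying parts.

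Combination replicate 5 stood apart from all other libraries. It had 68.8 TPM of Cd3e, a chain of the T cell receptor complex, and 275 TPM of Cd79a, a chain of the B cell receptor complex, and the highest levels among the other 23 libraries were 7.07 and 3.62 TPM. Its score for skeletal muscle genes, the mean log2(TPM + 1) of the tested members of that list, was 1.44, against 9.43 to 11.99 in the other 23 libraries. Among the compared libraries the highest T cell score was 2.58, in combination replicate 4, and the lowest skeletal muscle score was 9.43, in control replicate 2. Adipocyte genes also scored higher in the left-out library (9.21) than in any of the compared ones (4.80 to 7.82).

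Control replicate 3 differed from the other 5 control libraries in its tissue make-up. Wt1, a transcription factor of mesothelium and of many ovarian tumours, was at 4.33, 15.6, 216, 203 and 1.76 TPM in combination replicates 1, 2, 3, 4 and 6, and ranged from 0.65 TPM in control replicate 3 to 368 TPM in control, with a median of 237 TPM. Krt8, an epithelial keratin, was at 2.56, 23.3, 137, 146 and 4.69 TPM in the combination libraries and at 0.32 TPM in control replicate 3, against 95.6 to 292 TPM in the other 5 controls. Combination replicates 1 and 6 and control replicate 3 were thus nearly without Wt1 and Krt8, and combination replicate 2 was low in both. For both genes combination replicates 3 and 4 lay within the range of the other 5 controls. Over the mesothelium list combination replicates 1, 2 and 6 scored 1.41, 2.80 and 2.40, and control replicate 3 scored 1.35. Skeletal muscle genes were abundant in each of the 11 libraries, with scores of 10.33 to 11.46 in combination and 9.43 to 11.59 in control. In tissue pieces, fewer cells of a type and less RNA per cell cannot be told apart.

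**Figure D1:**
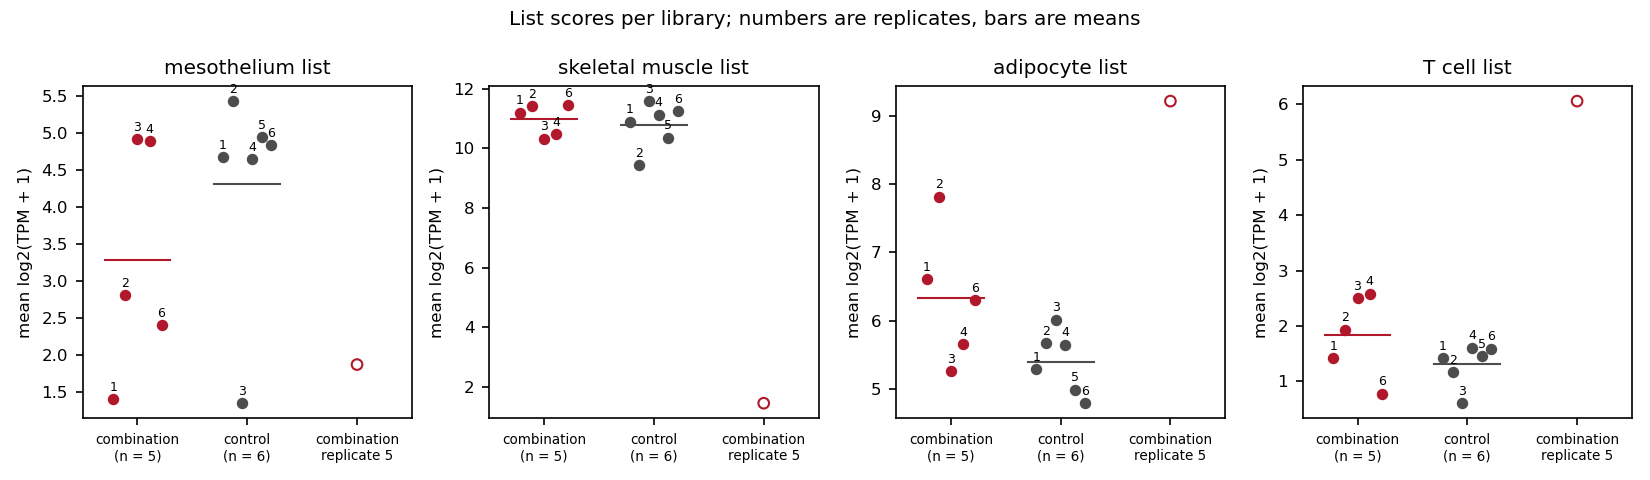
List scores of each library, the mean log2(TPM + 1) of the tested members, for mesothelium, skeletal muscle, adipocyte and T cell genes. Filled points are the 5 combination and 6 control libraries compared, bars are group means, numbers are replicates, and the open point is combination replicate 5, which scored 1.44 for skeletal muscle and 6.06 for T cell genes. Control replicate 3 had the lowest mesothelium score (1.35).

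No gene passed the threshold. Of 15317 genes tested with limma at a Benjamini-Hochberg adjusted p of 0.05, 0 were higher in combination (0%) and 0 lower (0%), and the smallest adjusted p was 0.264. At an unadjusted p under 0.05, 646 genes (4.22%) lay above control and 707 (4.62%) below it. Groups did not overlap for 119 genes (0.777%) that were higher in every combination library than in every control library and for 45 genes (0.294%) that were lower. Counts of list members at that unadjusted p are to be read against these shares of all genes. Without control replicate 3 the counts at that unadjusted p were 759 above and 2713 below, with 0 genes passing and a smallest adjusted p of 0.131 in limma. With weights estimated for each library 1084 genes passed as higher and 5764 as lower, and that fit gave control replicate 3 and combination replicates 3 and 4 the lowest weights of the 11 libraries (0.241, 0.368 and 0.471). The median log2 fold change over all tested genes was -0.18 and 30.2% of them lay above 0. This median was -0.01 after median-of-ratios scaling and 0.01 after quantile normalization. Members of a list are therefore read below against a median of -0.18.

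Among the genes of smallest p with higher levels, several are made by connective tissue and by myeloid cells. Dpt encodes dermatopontin, a small protein of the extracellular matrix that binds collagen, and had the smallest p of all genes. It was at 415, 386, 431, 359 and 571 TPM in combination replicates 1, 2, 3, 4 and 6, and at 191 to 284 TPM with a median of 233 TPM in control. The groups did not overlap, and the log2 fold change was 0.87 ± 0.17 (SE), with a limma adjusted p of 0.264. Dpt stayed between 0.76 and 0.93 when each of the 11 libraries was left out in turn.

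The sequence just before the transcription start of Dpt is shown with those of Retnla, Lep and S100a8, the genes with the largest log2 fold change in the alternatively activated macrophage, adipocyte and neutrophil lists described below. The sequences are from RefSeq (GRCm38.p6, an older build than the mm39 named for these data), each the 250 bases upstream of the start on the plus strand: Dpt at chr1:164796413-164796662, Retnla at chr16:48842359-48842608, Lep at chr6:29059971-29060220 and S100a8 at chr3:90668821-90669070. Capitals mark matches, on either strand, to a STAT-type motif (TTC and GAA with any 4 bases between them) or to TTGCNNAA, a C/EBP-type motif.
Dpt: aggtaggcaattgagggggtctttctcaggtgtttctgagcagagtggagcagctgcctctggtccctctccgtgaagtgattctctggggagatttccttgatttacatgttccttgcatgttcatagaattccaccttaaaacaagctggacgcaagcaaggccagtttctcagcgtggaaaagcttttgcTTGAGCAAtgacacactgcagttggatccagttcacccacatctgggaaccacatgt
Retnla: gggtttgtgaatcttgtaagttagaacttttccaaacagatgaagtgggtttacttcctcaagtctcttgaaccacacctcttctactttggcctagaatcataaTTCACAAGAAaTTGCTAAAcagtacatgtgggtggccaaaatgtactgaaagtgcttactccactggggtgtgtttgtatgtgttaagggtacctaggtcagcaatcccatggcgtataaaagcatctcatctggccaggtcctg
Lep: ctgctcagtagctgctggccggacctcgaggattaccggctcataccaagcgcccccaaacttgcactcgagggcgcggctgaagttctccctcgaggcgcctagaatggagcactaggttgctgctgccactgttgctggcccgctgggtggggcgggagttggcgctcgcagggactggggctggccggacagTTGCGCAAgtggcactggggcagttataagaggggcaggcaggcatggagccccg
S100a8: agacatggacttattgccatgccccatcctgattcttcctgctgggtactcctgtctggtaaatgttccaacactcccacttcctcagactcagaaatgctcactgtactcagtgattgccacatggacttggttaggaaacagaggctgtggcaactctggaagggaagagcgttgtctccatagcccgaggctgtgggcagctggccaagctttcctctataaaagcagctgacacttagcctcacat
Retnla held both motifs, which lay side by side, while Dpt and Lep held TTGCNNAA only and S100a8 held neither. Over all 27025 genes with promoters of the same length, 6.76% held the STAT-type motif in any of them and 10.8% held TTGCNNAA. A direct repeat of AGGTCA with 1 base between was held by 0.0407% of these genes. It is the form bound by the fat cell receptor PPARG with its partner RXR. Of the members with a promoter in the table, TTGCNNAA was found in 4 of 11 adipocyte genes, 1 of 10 alternatively activated macrophage genes and 4 of 9 neutrophil genes. The STAT-type motif was found in 1 of 11, 2 of 10 and 2 of 9 of the same genes, and the AGGTCA repeat in 0 of each. A match is a description of the letters and not a binding site.

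Pla2g2d, a secreted phospholipase A2, was at 10.9, 8.47, 18.2, 8.27 and 4.63 TPM in combination and at 1.18 to 4.23 TPM (median 1.80) in control, without overlap and with a log2 fold change of 1.68 ± 0.34. Xdh, the enzyme that makes uric acid in purine breakdown, was at 33.7 to 54.6 TPM in combination and 22.7 to 27.8 TPM in control. Ly6a, the surface protein Sca-1, was at 370.1 to 569 TPM in combination and 215 to 291 TPM in control. These groups also did not overlap, nor did those of Dapk1, a death-associated kinase (8.01 to 13.6 against 5.57 to 7.40 TPM), and Agtr1a, an angiotensin II receptor (8.01 to 9.54 against 3.52 to 6.85 TPM). Akr1c18, which inactivates progesterone, averaged 7.61 ± 3.63 TPM (SD, n = 5) in combination and 1.41 ± 1.06 TPM (SD, n = 6) in control. Dpep1, a dipeptidase that cleaves leukotriene D4, averaged 24.1 ± 3.92 TPM in combination and 12.7 ± 3.52 TPM in control, and for both genes 1 pair of libraries out of 30 broke the order. Each of these 7 genes had an adjusted p of 0.264.

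Genes of alternatively activated macrophages, the tissue-repair state that interleukin 4 and interleukin 13 bring about, lay mostly above control. Of 14 tested members, 12 were above control, 8 at an unadjusted p under 0.05 (4.22% of all genes), and the median log2 fold change was 0.63. Retnla, the secreted protein RELM alpha, was at 1259, 953, 2253, 861 and 1371 TPM in combination and at 212 to 933 TPM (median 311) in control. Control replicate 3 was the highest control and the only one above a combination library, and the log2 fold change was 1.86 ± 0.50 (2.14 without that library). Fat tissue and eosinophils can also express this gene.

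Surface lectins and scavenger receptors of these macrophages also lay above control. Mgl2, a galactose-binding lectin, was at 55.7, 62.3, 84.7, 52.3 and 75.3 TPM in combination and at 29.2 to 41.7 TPM (median 34.8) in control. Folr2, a folate receptor of tissue macrophages, was at 65.1 to 122 TPM in combination and 38.5 to 65.0 TPM in control, a narrow gap at combination replicate 2. Neither gene overlapped between the groups, nor did Clec10a, a lectin close to Mgl2 (40.5 to 79.7 against 28.4 to 37.6 TPM). The log2 fold changes of the 3 genes were 0.88 ± 0.22, 0.80 ± 0.26 and 0.63 ± 0.21. Cd209f, a lectin of the DC-SIGN family, was at 30.5 to 61.5 TPM in combination and 12.2 to 33.4 TPM in control. Mrc1, the mannose receptor, averaged 43.7 ± 11.2 TPM in combination and 28.3 ± 5.58 TPM in control, and Cd163, the haemoglobin scavenger receptor, 36.2 ± 4.80 TPM and 19.8 ± 6.76 TPM. Arg1, arginase, did not follow: its levels were spread from 1.66 to 22.1 TPM in combination and 0.49 to 24.6 TPM in control, and Ccl17 and Il4ra lay below control at log2 fold changes of -1.64 and -0.41. The median of the list was 0.69 without control replicate 3 and 0.76 in a fit with covariates for the content of other tissues. Those covariates use no mesothelium or carcinoma genes list, and the part of tissue make-up in these values was not tested.

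Both eotaxins lay above control. Ccl24, eotaxin-2, was at 14.4, 15.7, 21.7, 14.8 and 14.4 TPM in combination and at 4.15 to 8.90 TPM (median 5.45) in control. Ccl11, eotaxin-1, was at 33.1, 48.8, 28.9, 28.1 and 54.6 TPM in combination and at 11.3 to 26.4 TPM (median 17.5) in control. The receptor of both, Ccr3, was at 1.35, 1.12, 2.82, 1.19 and 2.92 TPM in combination and at 0.31 to 0.79 TPM (median 0.63) in control. Neither eotaxin overlapped between the groups, and their log2 fold changes were 1.38 ± 0.38 and 1.02 ± 0.27. Ccr3 did not overlap either, at 0.81 ± 0.18. It could pass the filter on low values through the combination libraries alone, since no control library reached 1 TPM. Its values are therefore a description. Eosinophils are the main bearers of this receptor. Of 11 tested genes of eosinophils and mast cells, 8 lay above control and 3 below it. At an unadjusted p under 0.05, 2 lay above control, Ccr3 among them (4.22% of all genes did). The median of the list was 0.11. That median was -0.02 without control replicate 3, -0.17 without combination replicate 3 and 0.30 without combination replicate 2. Their peroxidase gene Epx was listed at 0 in all 11 libraries, their lectin gene Siglecf did not pass the filter at 0.49 to 2.42 TPM in combination and 0.23 to 0.38 TPM in control, and Prg2, a granule protein gene, was at a log2 fold change of 0.29 ± 0.36. Ear2, a ribonuclease of eosinophils and some macrophages, was at 22.5 to 86.8 TPM in combination and 4.56 to 27.6 TPM in control.

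Other chemokines, the secreted proteins that attract leukocytes, lay above control to differing extents. Of 31 tested chemokine and chemokine receptor genes, 25 were above control, 7 of them at an unadjusted p under 0.05 (4.22% of all genes) against 1 below control, and the median was 0.49. The median was 0.25 without control replicate 3 and 0.27 without combination replicate 4. Ccl9 was at 92.4, 139.6, 139, 79.2 and 155 TPM in combination and at 54.5 to 71.9 TPM (median 64.6) in control, without overlap. Ccl6, its close relative, was at 133 to 275 TPM in combination and 71.7 to 142 TPM in control. Cxcl12, which retains CXCR4-bearing cells, was at 64.6 to 113 TPM in combination and 51.3 to 68.0 TPM in control. The single member below control at that p was Ccl25, at 3.97 to 6.64 TPM in combination and 6.32 to 11.2 TPM in control.

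**Figure D2:**
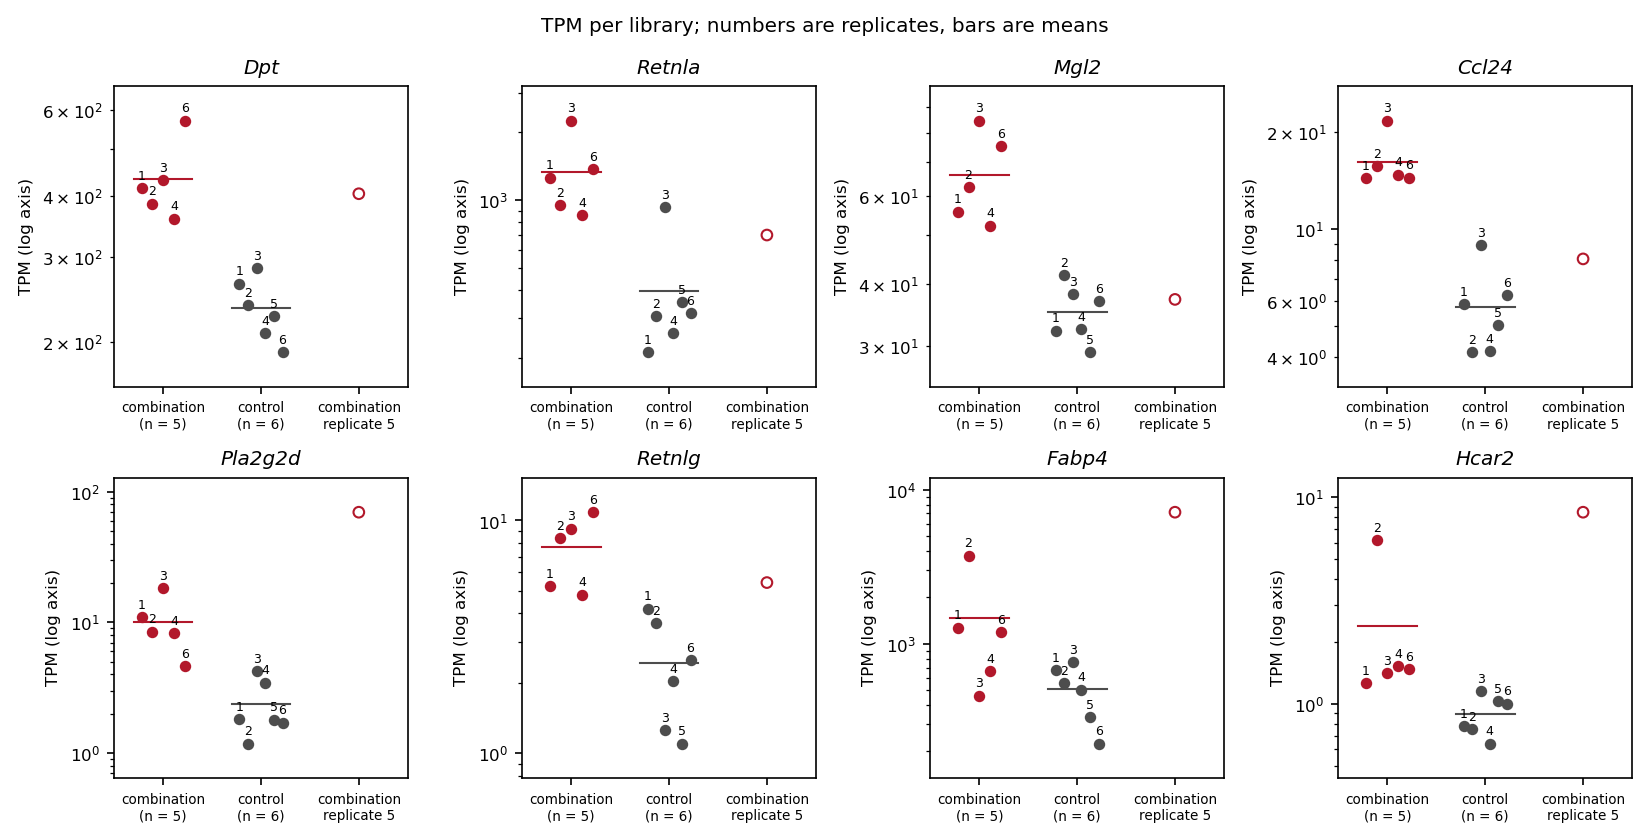
TPM of 8 genes in each library on log axes, with combination (5 libraries) on the left, control (6) in the middle and combination replicate 5 as an open point. Bars are means and numbers are replicates. Dpt, Mgl2, Ccl24, Pla2g2d, Retnlg and Hcar2 did not overlap between the groups, Retnla overlapped through control replicate 3, and Fabp4 ranged from 461 to 3728 TPM within combination.

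Neutrophil genes lay above control in 10 of 11 tested members of 18 listed, 5 at an unadjusted p under 0.05 (4.22% of all genes), with a median of 0.68. Retnlg, a resistin-like protein of neutrophils and monocytes, was at 5.23, 8.40, 9.21, 4.80 and 10.8 TPM in combination and at 1.10 to 4.18 TPM (median 2.27) in control, a log2 fold change of 1.36 ± 0.32 without overlap. S100a8 and S100a9 encode the subunits of calprotectin, the main cytosolic protein of neutrophils. S100a8 was at 16.7, 39.9, 8.07, 9.23 and 2.80 TPM in combination and at 0 to 9.37 TPM (median 2.90) in control, and S100a9 at 17.5, 66.0, 9.92, 13.1 and 3.82 TPM in combination and at 1.46 to 12.4 TPM (median 3.85) in control. Both were highest in combination replicate 2, and combination replicate 6 lay within the control range. The median of the list was 0.26 without combination replicate 2. Ly6g, the gene that defines mouse neutrophils, was at 0 in 10 of the 11 libraries and at 0.09 TPM in combination replicate 4.

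Monocyte and inflammatory macrophage genes were above control in 12 of 12 tested members, 3 at an unadjusted p under 0.05 (4.22% of all genes). The median of the list was 0.58. It was 0.32 without control replicate 3, which had the lowest score of the controls, and 0.87 without combination replicate 6. Plac8 was at 48.5 to 86.9 TPM in combination and 26.3 to 55.2 TPM in control, and Ccr2, the receptor by which monocytes leave the blood, averaged 32.4 ± 13.4 TPM in combination and 18.3 ± 4.73 TPM in control. Resident macrophages of the peritoneal cavity showed no common direction as a list, with 7 of 13 members above control and a median of 0.01 (-0.12 to 0.26 on leaving out 1 library). At an unadjusted p under 0.05, 4 of their genes lay above control (4.22% of all genes) and 0 below it (4.62% of all genes). Groups did not overlap for 2 of their genes, both higher in combination (0.777% of all genes). Timd4, their receptor for dying cells, was at 6.97, 7.30, 5.42, 4.66 and 9.20 TPM in combination and at 1.71 to 4.03 TPM (median 2.54) in control, without overlap. Alox15, which oxygenates arachidonic acid, was at 3.15 to 5.63 TPM in combination and 1.46 to 2.83 TPM in control, also without overlap. Gata6, the transcription factor of these macrophages and of mesothelium, was spread from 1.15 to 26.1 TPM in combination and 0.82 to 43.8 TPM in control and was low in the libraries low in Wt1. All 26 genes of a pan-leukocyte list were above control, 1 at an unadjusted p under 0.05, a share near the 4.22% of all genes, with a median of 0.37 (0.19 without control replicate 3 and 0.20 without combination replicate 3).

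T cell genes relate to the choice of the left-out library, and their values are given as a description. All 16 tested T cell genes of 18 listed and all 8 tested cytotoxic lymphocyte genes of 16 listed lay above control, with medians of 0.47 and 0.99. Members that failed the filter are not in these counts, and the combination libraries alone could meet the filter. Cd247, the signalling chain of the T cell receptor, was at 3.14, 5.09, 4.28, 5.02 and 1.49 TPM in combination and at 0.72 to 2.40 TPM (median 1.05) in control. Cd8a, of cytotoxic T cells, was at 0.53, 1.04, 1.01, 3.17 and 0.04 TPM in combination and at 0.11 to 1.12 TPM (median 0.695) in control. Gzmb, a killing protease, was at 2.29, 3.82, 1.59, 1.22 and 0.09 TPM in combination and at 0.05 to 0.79 TPM (median 0.23) in control. It reached 1 TPM in no control library and passed the filter through treated libraries alone. Combination replicate 6 was the lowest of its group for each of the 3 genes. Of B cell genes 6 of 7 were above control with a median of 0.16, and of plasma cell genes 3 of 12 with a median of -0.26. Single libraries set the sign of both medians: the B cell median was -0.01 without combination replicate 3 and 0.36 without combination replicate 6, and the plasma cell median -0.89 without control replicate 3 and 0.58 without combination replicate 6. The T cell median was 0.75 without combination replicate 6.

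Genes that interferon gamma induces were above control in 16 of 19 tested members, 4 at an unadjusted p under 0.05 (4.22% of all genes). The median of the list was 0.53. That median was 0.23 without control replicate 3, 0.28 without combination replicate 4, 0.31 without combination replicate 2 and 0.93 without combination replicate 6. Cd274, the checkpoint ligand PD-L1, was at 6.93, 19.3, 9.44, 11.1 and 3.12 TPM in combination and at 2.59 to 6.39 TPM (median 3.71) in control. Gbp5, a guanylate-binding protein, averaged 14.8 ± 6.81 TPM in combination and 6.71 ± 2.21 TPM in control. For both genes combination replicate 6 lay inside the control range, and for Gbp5 combination replicate 1 did too. Class I antigen presentation genes were above control in 14 of 16 members with a median of 0.42, none at an unadjusted p under 0.05, and class II genes in 5 of 10 with a median of -0.04, which was 0.16 after median-of-ratios scaling. The class I median was 0.21 without control replicate 3 and 0.75 without combination replicate 6, and the class II median -0.37 and 0.36 without the same libraries.

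Fat cell genes had the highest median of the 46 lists, 1.01, with 15 of 15 tested members above control. Of these, 9 were at an unadjusted p under 0.05 (4.22% of all genes). Fabp4, the fatty acid binding protein of adipocytes, was at 1271, 3728, 461, 665 and 1187 TPM in combination and at 225 to 762 TPM (median 528) in control. Adipoq, adiponectin, was at 266, 604, 75.6, 109.7 and 223 TPM in combination and at 38.8 to 146 TPM (median 88.3) in control. Lep, the satiety hormone leptin, was at 9.43, 58.7, 0.83, 4.69 and 4.79 TPM in combination and at 0.41 to 4.68 TPM (median 2.24) in control. Combination replicates 1, 2 and 6 were high in these genes, replicate 2 most of all, and replicates 3 and 4 lay near control, so no member of the list was free of overlap. Retn, resistin, and Pparg, the master regulator of fat cells, had log2 fold changes of 1.24 ± 0.47 and 1.01 ± 0.36. The median of the list was 0.40 with the tissue covariates, which are built in part from the adipocyte score, and 0.55 without combination replicate 2. The 3 combination libraries high in fat genes were the 3 low in Wt1, and the part of tissue make-up in the result was not tested.

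Connective tissue and vessel genes lay above control in part. Fibroblast genes were above it in 11 of 15 tested members, 5 at an unadjusted p under 0.05 (4.22% of all genes). Their median was 0.21 (0.40 after median-of-ratios scaling, 0.11 without control replicate 4 and 0.13 without combination replicate 6). Pdgfra, the growth factor receptor of fibroblasts, was at 21.9, 20.1, 21.3, 21.7 and 25.3 TPM in combination and at 13.5 to 17.3 TPM (median 15.7) in control, a log2 fold change of 0.48 ± 0.11 without overlap. Clec3b, tetranectin, averaged 157 ± 55.5 TPM in combination and 88.0 ± 18.3 TPM in control. Collagen and matrix genes ran the other way, with 1 of 18 above control and a median of -0.37 (-0.18 after median-of-ratios scaling and -0.23 without combination replicate 1), 0 of them at an unadjusted p under 0.05. Endothelial genes were above control in 14 of 18 members, 5 at an unadjusted p under 0.05 (4.22% of all genes). They were led by Cldn5, a tight junction protein, at 11.6 to 35.5 TPM in combination and 6.71 to 12.6 TPM in control. The endothelial median was 0.31, and 0.07 with the tissue covariates.

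Receptors and carriers of the 2 acids were low or unequal. Of 9 tested members, 5 lay above control, 3 of them at an unadjusted p under 0.05 (4.22% of all genes). At that p 1 lay below control (4.62% of all genes did). Hcar2, a receptor for butyrate and for niacin, was at 1.26, 6.18, 1.41, 1.52 and 1.47 TPM in combination and at 0.64 to 1.15 TPM (median 0.89) in control. The groups did not overlap, by a narrow gap (1.26 against 1.15 TPM), and the log2 fold change of 0.67 ± 0.23 was 0.36 without combination replicate 2. Hcar2 could pass the filter on these low values through the combination libraries alone. Ffar2, a receptor for short-chain fatty acids on neutrophils and fat cells, was at 3.04, 6.25, 1.03, 0.65 and 0.81 TPM in combination and at 0.37 to 1.24 TPM (median 0.64) in control. Ffar3, its relative, did not pass the filter and reached at most 0.05 TPM in combination and 0.07 TPM in control. Slc16a1, the carrier MCT1, was at 7.59, 15.8, 15.8, 21.5 and 16.2 TPM in combination and at 17.0 to 26.9 TPM (median 21.6) in control, a log2 fold change of -0.53 ± 0.22. Slc16a7, the carrier MCT2, was at 2.35 to 4.09 TPM in combination and 1.03 to 3.53 TPM in control. The colon carrier gene Slc5a8 did not pass the filter.

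Genes that break down the acids showed no common direction. Of 20 tested members of propionate and butyrate catabolism, 11 lay above control, 1 of them at an unadjusted p under 0.05, a share near the 4.22% of all genes, and the median was 0.00. The member was Acss3, which activates propionate, at 5.12, 7.79, 2.47, 2.26 and 3.57 TPM in combination and at 0.95 to 4.47 TPM (median 1.88) in control. Pcca and Pccb, the subunits of propionyl-CoA carboxylase, had log2 fold changes of 0.01 ± 0.14 and 0.24 ± 0.14. Acads, which starts the oxidation of butyrate, was at -0.04 ± 0.13, and at 0.15 after median-of-ratios scaling. Histone deacetylase genes, whose products the acids inhibit, lay below control in 9 of 11 members with a median of -0.28 (-0.10 after median-of-ratios scaling and 0.00 with the tissue covariates). By limma 0 of them were at an unadjusted p under 0.05. Without control replicate 3, 4 were lower at that p, in a fit where 2713 of all 15317 genes were.

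Genes with lower levels and the smallest p included heat shock and mitochondrial genes, with adjusted p of 0.294 to 0.334. Hsph1, a chaperone of the Hsp110 family, was at 25.6, 32.4, 29.2, 28.3 and 37.5 TPM in combination and at 38.0 to 51.7 TPM (median 45.7) in control, without overlap. Ahsa2, related to an activator of Hsp90, was at 16.0 to 21.6 TPM in combination and 23.1 to 35.1 TPM in control. Of 17 tested heat shock and unfolded protein response genes, 1 lay above control, 2 were below it at an unadjusted p under 0.05 (4.62% of all genes), and the median was -0.34 (-0.19 after median-of-ratios scaling and -0.21 without combination replicate 1). Col7a1, the collagen of anchoring fibrils under epithelia, was at 1.61, 0.77, 1.55, 1.86 and 1.40 TPM in combination and at 2.35 to 7.38 TPM (median 4.16) in control, a log2 fold change of -1.15 ± 0.30 without overlap. Mettl25b was at 3.29 to 5.31 TPM in combination and 6.36 to 9.79 TPM in control, also without overlap. Samm50, which inserts proteins in the mitochondrial outer membrane, averaged 57.1 ± 4.27 TPM in combination and 73.2 ± 7.22 TPM in control. Rmnd1, needed for mitochondrial translation, averaged 23.0 ± 4.72 TPM in combination and 35.7 ± 6.43 TPM in control, and Slc6a8, the creatine transporter, was at 29.1 to 41.3 TPM in combination and 36.9 to 68.3 TPM in control. The remaining genes named in this direction had log2 fold changes of -0.79 (Spag1), -0.76 (Nr6a1) and -0.47 (Mapk1ip1). Vegfa, which drives vessel growth, was at 41.6, 69.9, 70.7, 92.8 and 71.7 TPM in combination and at 83.1 to 257 TPM (median 123) in control, with 1 of 30 pairs of libraries out of order.

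All 22 tested cell cycle genes lay below control, with a median of -1.10, and none reached an unadjusted p under 0.05. Mki67, a marker of dividing cells, was at 0.94, 1.93, 9.04, 9.68 and 1.60 TPM in combination and at 0.88 to 22.5 TPM (median 8.74) in control. The low combination libraries, replicates 1, 2 and 6, were those low in Wt1, and the lowest control was replicate 3, so the groups overlapped throughout. All 14 mesothelium genes also lay below control, with a median of -1.11 and 0 at an unadjusted p under 0.05. Without control replicate 3 the medians were -1.54 and -1.70. In that fit 13 cell cycle and 7 mesothelium genes were lower at an unadjusted p under 0.05, as were 2713 of all 15317 genes. Without combination replicate 1 the mesothelium median was -0.58. With the tissue covariates, which include ovary and exocrine pancreas scores also low in control replicate 3, the medians were -0.32 and -0.27. The part of tissue make-up in these values was not tested. Cdkn1a, the cell cycle inhibitor p21, was at 28.4 to 47.3 TPM in combination and 38.5 to 51.6 TPM in control.

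**Figure D3:**
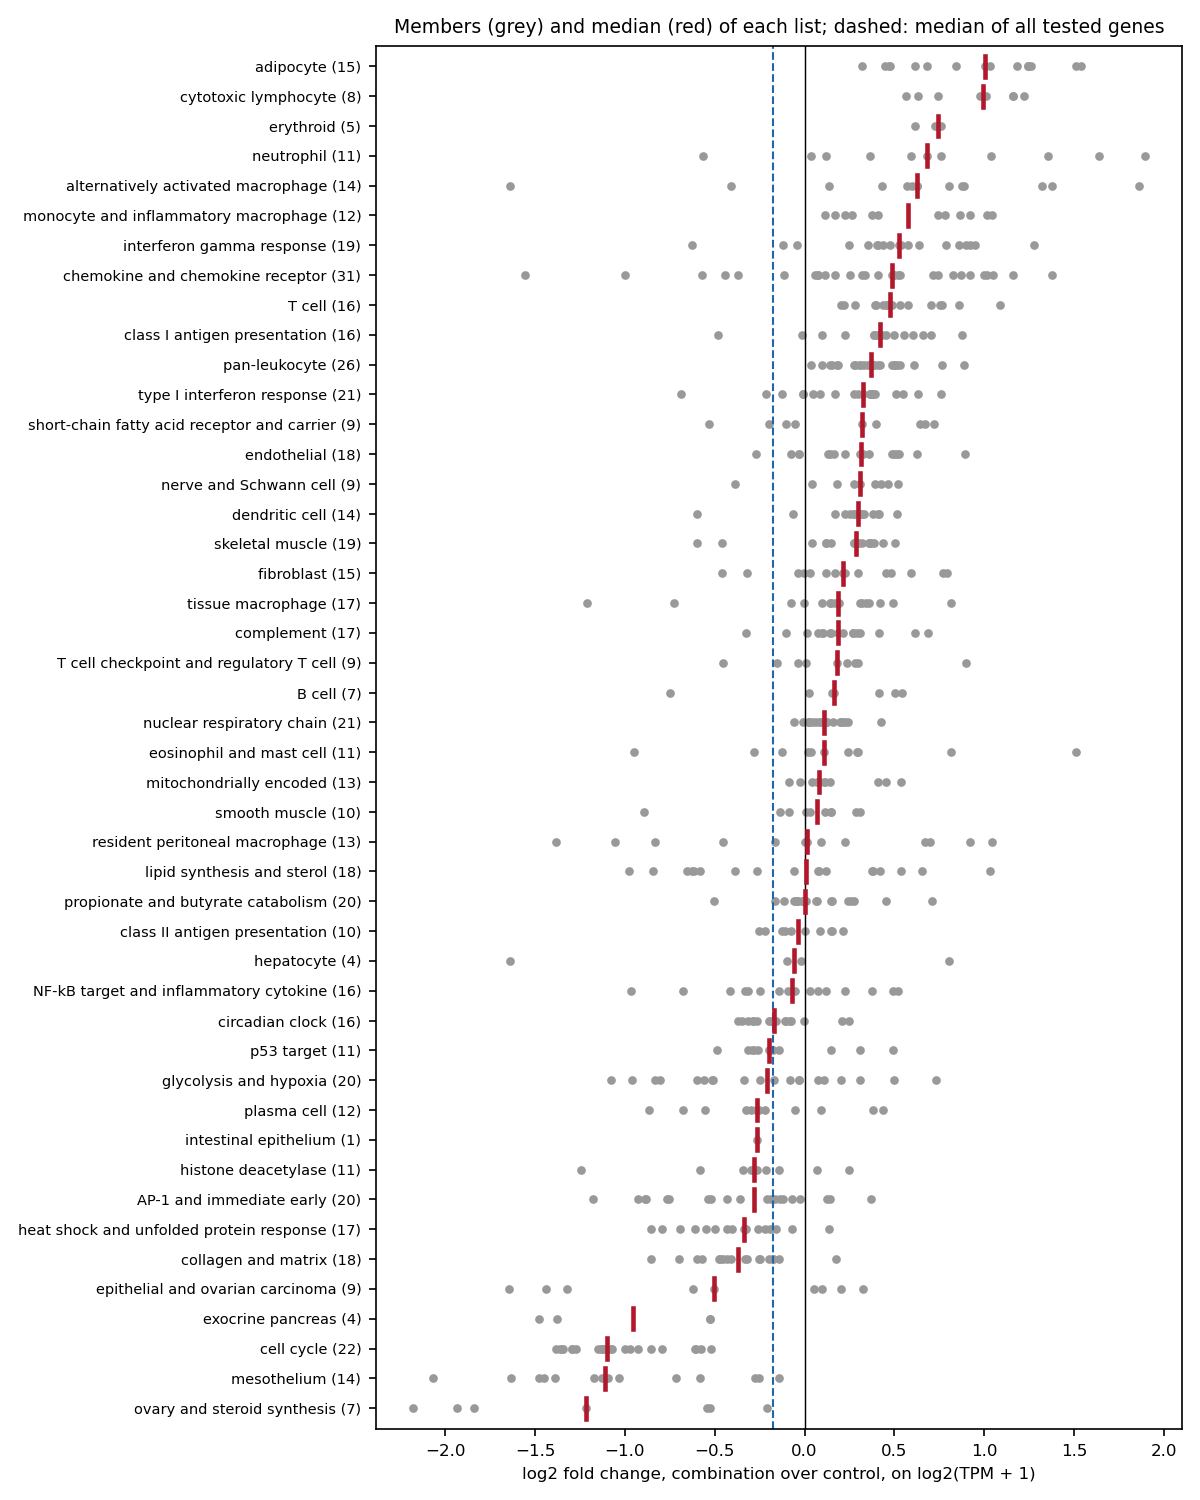
Log2 fold changes, combination over control, of the tested members of each gene list (grey points) with the list median (red bar). Lists are ordered by median, the number of tested members is in brackets, and the dashed line is the median of all tested genes (-0.18). Medians ran from 1.01 for adipocyte genes to -1.21 for ovary and steroid synthesis genes.

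Against each acid alone, no gene passed. The combination was set against the 6 propionate libraries and against the 6 butyrate libraries in the same fit, and 0 of 15317 genes had an adjusted p under 0.05 in limma in either comparison. Against propionate, 590 genes (3.85%) lay higher and 31 (0.202%) lower in combination at an unadjusted p under 0.05, and against butyrate 914 (5.97%) and 68 (0.444%). The smallest adjusted p was 0.634 against propionate and 0.681 against butyrate. The comparisons of the 3 treated groups with control share the 6 control libraries, and the values that follow are each comparison's own.

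Pan-leukocyte genes as a list had medians over control of 0.37 in combination, -0.35 with propionate and -0.46 with butyrate. The medians of all tested genes were -0.18, -0.30 and -0.38 in the same order. The part of tissue make-up in the differences between treated groups was not tested. For some genes the single acids lay close to control. Mgl2 had log2 fold changes of 0.88 in combination, 0.12 with propionate and 0.11 with butyrate, and Ly6a 0.82, 0.11 and 0.16. Set directly against propionate and butyrate, the combination differed by 0.76 ± 0.22 and 0.76 ± 0.22 for Mgl2 and by 0.72 ± 0.19 and 0.66 ± 0.19 for Ly6a. Ccl9 was at 0.87 in combination, -0.22 with propionate and 0.07 with butyrate, and Alox15 at 0.70, -0.08 and -0.14. For others the single acids lay on the same side of control as the combination: Pla2g2d was at 1.68 in combination, 0.95 with propionate and 1.09 with butyrate, and Retnla at 1.86, 1.29 and 0.82. Mettl25b was at -0.77, -0.52 and -0.61 in the same order, and Samm50 at -0.35, -0.19 and -0.37. The difference of combination and propionate was 0.57 ± 0.50 for Retnla and -0.16 ± 0.10 for Samm50, both within 2 SE of 0.

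List medians are given in the same way, and the part of tissue make-up in them was not tested either. The alternatively activated macrophage list had medians of 0.63 in combination, 0.06 with propionate and 0.20 with butyrate, and the neutrophil list 0.68, -0.04 and -0.08. Cell cycle medians were -1.10, -1.43 and -1.65, and adipocyte medians 1.01, 0.37 and 0.46. The medians over all tested genes were -0.18, -0.30 and -0.38, against which each list is to be read.

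**Figure D4:**
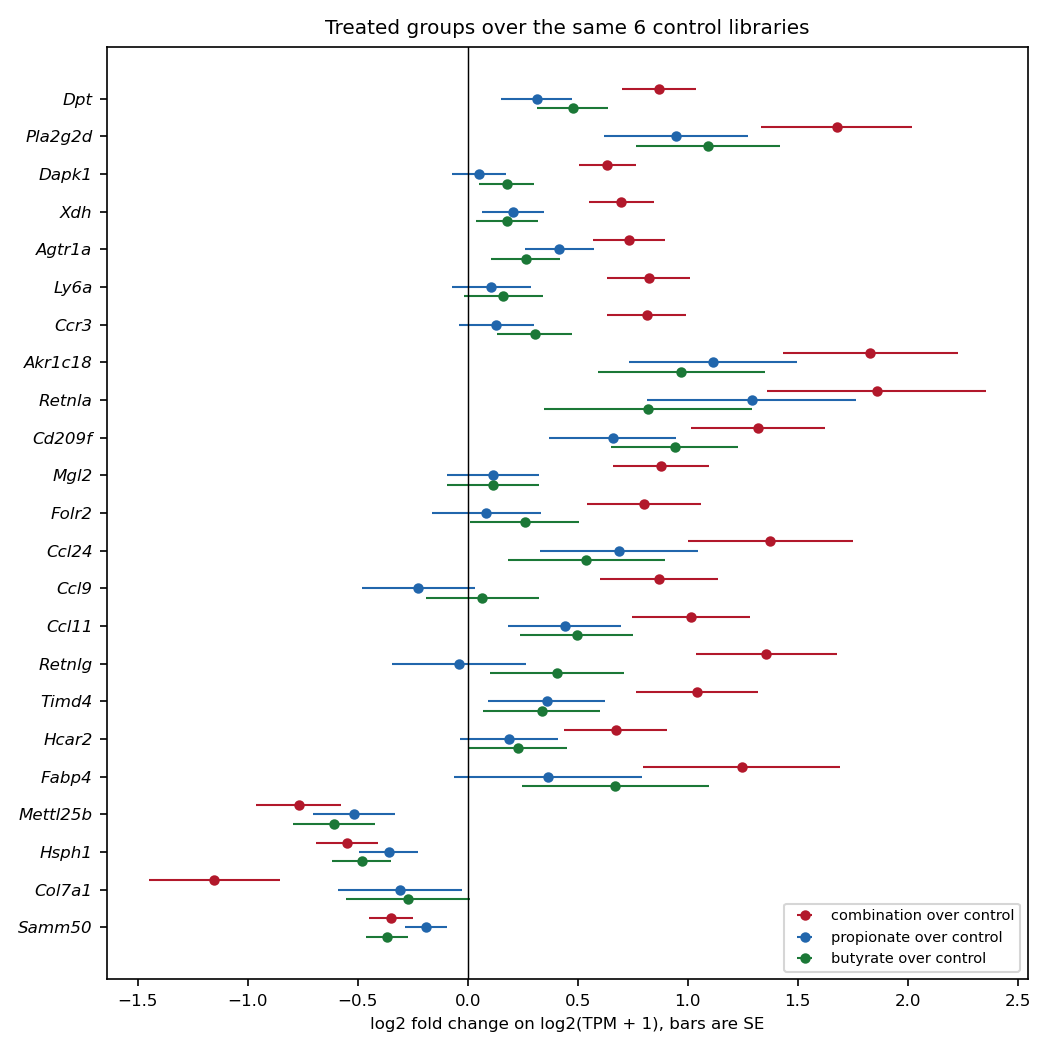
Log2 fold changes over the same 6 control libraries for genes named in the text, with combination in red, propionate in blue and butyrate in green, and bars of 1 SE. Mgl2, Ly6a and Ccl9 lay near 0 with each acid alone, and Pla2g2d and Retnla lay above 0 in all 3 treated groups.

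Adding combination replicate 5 back gave 0 genes higher and 0 lower at an adjusted p of 0.05 in limma, with a smallest adjusted p of 0.176. At an unadjusted p under 0.05 the counts were then 968 higher and 644 lower. The median of the T cell list was 1.20 with that library and 0.47 without it, that of the B cell list 1.10 and 0.16, and that of the skeletal muscle list -1.44 and 0.29. Dpt was at 404 TPM in that library, within the range of the other combination libraries, and its log2 fold change with it was 0.86. Retnla, at 701 TPM, Mgl2, at 37.2 TPM, and Ccl24, at 8.08 TPM, were each below the other 5 combination libraries there. Pla2g2d, at 69.8 TPM, and Timd4, at 104 TPM, were far above them. Log2 fold changes with it were 1.72 for Retnla, 0.75 for Mgl2, 1.22 for Ccl24, 2.14 for Pla2g2d and 1.68 for Timd4.

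**Figure D5:**
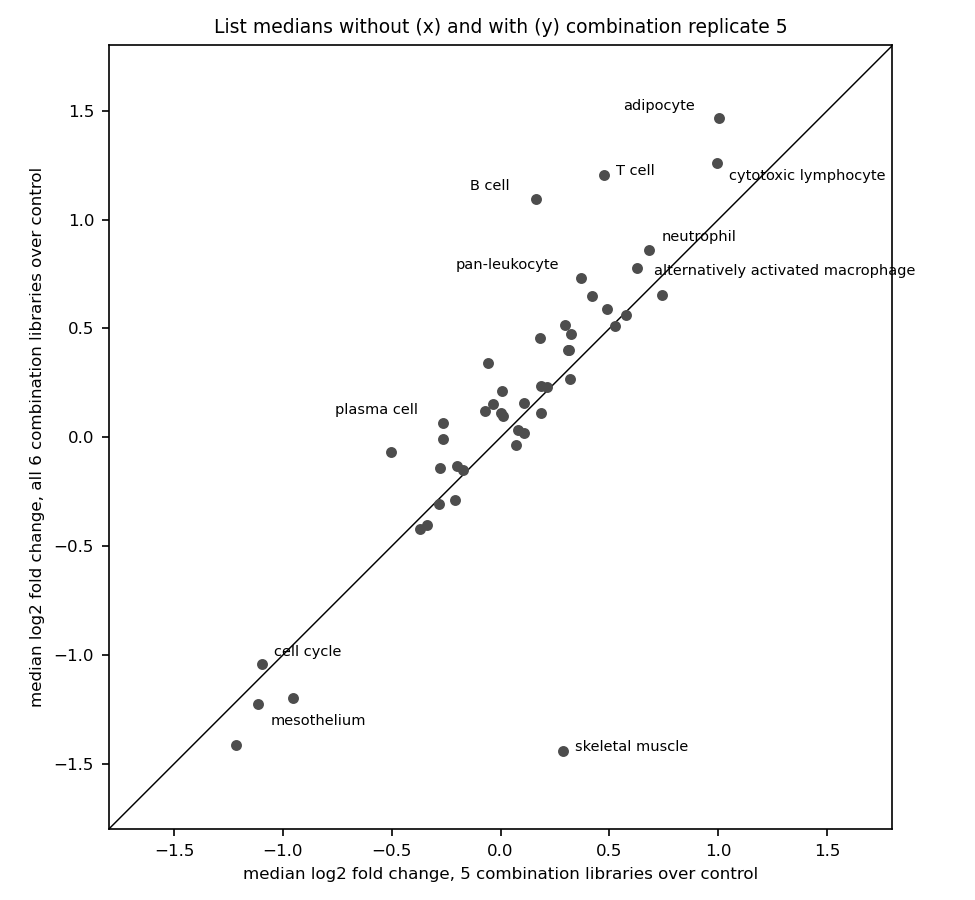
Median log2 fold change of each gene list over control without (x axis) and with (y axis) combination replicate 5, on log2(TPM + 1). The diagonal marks equal values. The skeletal muscle list lay at 0.29 and -1.44, and the T and B cell lists lay above the diagonal.

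Measures of whole libraries overlapped between the groups. Mitochondrially encoded transcripts took 17.8 ± 2.71% of the TPM in combination and 16.6 ± 3.72% in control (SD, two-sided exact permutation p = 0.584). The 50 most abundant genes took 44.7 ± 6.77% in combination and 40.6 ± 7.97% in control (exact permutation p = 0.394). Genes with at least 1 TPM numbered 13268 to 14816 in combination and 13130 to 14949 in control (exact permutation p = 0.431). Adjusted over the 3 measures each p was 0.584, and 5 against 6 libraries allow no p below 0.00216.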

How the data were processed

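The libraries were made from TRIzol RNA and are stranded and polyA-selected, per the labels' protocols. The submitters' processing notes name fastp, HISAT2, StringTie and mm39 (a mouse build), while for versions, settings and annotation the entry is "not given in the sources used here". TPM deposited by the authors covered 149132 transcripts and were summed here by gene name (56422 names) without 1001 unnamed transcripts (0.174 to 0.470% of a library). As all libraries have the same total, depth and counting error are unknown. Of the 24 libraries, 23 entered 1 limma 3.58.1 fit in R 4.3.3 (trend and robust empirical Bayes) on log2(TPM + 1), without combination replicate 5. The fit was tested on simulated data. A gene was tested if 5 libraries or more reached 1 TPM, which the 5 combination libraries could meet alone (15317 genes). P-values were adjusted by Benjamini-Hochberg, with a threshold of 0.05. The pseudocount of 1 understates fold changes of low genes. Values after ± are SDs for TPM and shares and SEs for log2 fold changes.

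Where under 10 genes passed in a direction, the 10 with the lowest p and a mean level of 1 or more on the log2 scale were named. In described lists up to 6 members of lowest p and 3 of highest level were eligible, and 16 genes always were. Members that define a cell type, or that lay against the direction of their list, were added after their values were seen. The comparison, the 46 gene lists (624 of 727 genes tested) and the rule were chosen with earlier results of these data known. Lymphocyte and muscle lists relate to the library left out, and their members were not counted at a p threshold. Their genes stayed in the limma fit and in its counts over all genes, and their scores in Dixon's test below. Library shares were compared by exact permutation (462 arrangements, two-sided). Alternatives were other pseudocounts, filters, scalings, library weights, samples in the fit, replicate blocks, leaving out each library, and tissue covariates (principal components 1 and 2 of 8 list scores, among them fat, muscle, ovary and blood). Of tested names, 95.3% matched an older reference annotation. Strand-aware counting is not stated, so genes with antisense partners, and those in multigene families, are uncertain. The result for 1 gene is not reported here.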

Additional observations from a re-analysis of the deposited data

Results flagged for a closer look

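In groups of 5 or 6 libraries, a library was set aside for a closer look when its gap to the nearest other, divided by the range of the group, passed the 95% critical value of Dixon's test. Of 168 groups tested 23 were picked out, and chance gives about 5%. Most of them were control replicate 3. On log2(TPM + 1) it was at 0.722 for Wt1 (other controls 7.05 to 8.53) and 0.401 for Krt8 (6.59 to 8.20), and above the others for Retnla at 9.87 (7.73 to 8.47) and Dpep1 at 4.36 (3.38 to 3.74). It held 13130 genes with at least 1 TPM, against 14319 to 14949 in the other controls.

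Its list scores lay below those of the other controls for mesothelium (1.35, others 4.65 to 5.43), epithelial and ovarian carcinoma (0.749, others 2.78 to 3.50), ovary and steroid synthesis (1.25, others 3.58 to 4.65) and exocrine pancreas genes (0.418, others 2.92 to 3.83). The same held for monocyte and inflammatory macrophage (1.74, others 2.95 to 3.37), dendritic cell (2.16, others 2.77 to 3.04), and T cell checkpoint and regulatory T cell genes (0.822, others 1.41 to 1.73). It held as well for class I (4.78, others 5.80 to 6.24) and class II antigen presentation (4.78, others 6.47 to 6.90), NF-kB target (2.05, others 3.12 to 3.69), chemokine (2.75, others 3.75 to 4.03) and lipid synthesis genes (3.83, others 4.68 to 5.18). Scores of nerve and Schwann cell genes (3.55, others 3.07 to 3.21) and of short-chain fatty acid receptors and carriers (3.43, others 3.08 to 3.19) lay above. The smooth muscle score of control replicate 2 was 4.24, against 4.75 to 5.06 in the other controls.

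Among the combination libraries, replicate 2 was at 2.84 for Hcar2 on log2(TPM + 1) (others 1.18 to 1.33) and scored 3.78 for receptors and carriers (others 3.22 to 3.33). Replicate 1 scored 2.67 for intestinal epithelium (others 2.13 to 2.25), a score that rests on 1 tested gene of 12 listed. Controls scored 1.61 to 3.22 for it.

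Outside the comparison, combination replicate 5 scored 6.06 for T cell genes (controls 0.605 to 1.61), 7.47 for B cell genes (controls 1.22 to 2.33), 5.97 for plasma cell genes (controls 1.58 to 5.30) and 4.88 for cytotoxic lymphocyte genes (controls 0.738 to 1.88). The T and B cell values are of the kind on which that library was left out. For plasma cell genes combination replicate 3 scored higher, at 6.07.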

How the results depend on the processing

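With 0 genes passing in either direction, the same counts of 0 came from each alternative run except library weights and leaving out single libraries. With limma's library weights, 1084 genes were higher and 5764 lower at an adjusted p of 0.05 (1506 and 6814 unadjusted). Those weights were 0.241 for control replicate 3, 0.368 and 0.471 for combination replicates 3 and 4 and 2.96 for control replicate 4 (the cause was not tested). Under these weights Cd8a was at -0.11, against 0.28. Leaving out each library in turn gave 0 to 2 genes higher and 0 to 1 lower. The 2 were Cd247 and Trbv3 without combination replicate 6, and the 1 was 2210412B16Rik without control replicate 1 (adjusted p = 0.0407 in limma), named after their values were seen. Cd247 and Trbv3 are T cell transcripts, of the kind on which combination replicate 5 was left out, so their passing is a description and not a test. At an unadjusted p under 0.05, genes lower numbered 707, with 2713 without control replicate 3, 251 without combination replicate 1, 347 without combination replicate 6, 301 without control replicate 5, 397 without control replicate 6, 455 without control replicate 4, 470 without control replicate 2, 1071 without combination replicate 4 and 1329 without combination replicate 3. Genes higher numbered 646, with 414 without combination replicate 2. Median-of-ratios and quantile scaling gave 1114 and 1123 higher and 854 and 965 lower, tissue covariates 1112 and 690. List medians changed sign for 10 of 46 lists with the tissue covariates, 9 with library weights and 6 with combination replicate 5.

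Same-numbered libraries did not pair: correlations of their deviations by title number ran from -0.814 to 0.205, and by the library number of the description from -0.362 to 0.618. A library correlated best with its own number for 0 of 5 title numbers and 1 of 4 library numbers. A replicate block by title number left 0 genes higher and 0 lower (561 and 738 unadjusted), and a block by library number 0 and 0 (726 and 3657 unadjusted). With no depth in TPM, no counting error could be given.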

Other observations

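Stress and metabolic gene groups not described above gave the following values. Of 20 tested AP-1 and immediate early genes, 3 lay above control. At an unadjusted p under 0.05, 2 lay below it (4.62% of all genes did). The median was -0.28 (-0.10 after median-of-ratios scaling, -0.08 without control replicate 5 and -0.44 without combination replicate 2). Jun and Fosb, subunits of the AP-1 factor, had log2 fold changes of -0.52 ± 0.20 and -0.89 ± 0.38. Of 20 glycolysis and hypoxia genes, 6 lay above control, with a median of -0.21 (-0.14 without control replicate 3 and -0.13 without control replicate 5). Adm, adrenomedullin, was at 4.10, 7.51, 9.51, 7.97 and 7.22 TPM in combination and 3.37 to 4.45 TPM in control, while Egln3, an oxygen sensor, had a log2 fold change of -0.83 ± 0.33.

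Mitochondrially encoded genes lay above control in 11 of 13 members with a median of 0.08, which was below 0 after quantile normalization and ran from 0.02 to 0.19 on leaving out 1 library. Erythroid genes lay above control in 5 of 5 tested members of 9 listed, with a median of 0.74. It was 0.45 without control replicate 4 and 0.48 without combination replicate 6. With the tissue covariates, which are built in part from the erythroid score itself, it was -0.06. Dendritic cell genes lay above control in 12 of 14 members with a median of 0.30 (0.17 without control replicate 3 and 0.12 without combination replicate 3), and by limma 0 reached an unadjusted p under 0.05. Circadian clock genes lay above control in 2 of 16 members with a median of -0.17 (-0.09 without combination replicate 6), close to the median of all tested genes.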
